A study of Trichoderma reesei with 18 samples.

Results

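The light response of the wild type (WT) of Trichoderma reesei was examined in 6 of the 18 RNA-seq libraries of a study on this filamentous fungus, a producer of cellulases. The 3 light libraries and 3 dark libraries of strain QM6a were taken by their sample titles, and all 10879 rows of the count table were considered. The other 12 libraries came from QM6a-delta-80186 and QM6a-delta-21168 (Δ80186 and Δ21168 here), each with a deletion of a MAP kinase kinase gene named in the series title for the HOG or the pheromone pathway, again with 3 light and 3 dark libraries each. Light libraries came from mycelium kept in constant light and dark libraries from mycelium kept in constant darkness. Every group was grown for 96 h at 28°C in minimal medium with cellulose as carbon source. Nothing in the labels ties the libraries of a group to different cultures, and p-values then measure only the spread between these samples, which may be technical. They give no separation of hyphae, aerial mycelium or spores, and fewer cells of a kind and less RNA per cell cannot be told apart in such bulk samples.

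Light is a developmental and metabolic signal for filamentous fungi. It is sensed by blue-light photoreceptors such as the BLR proteins, relatives of the white collar proteins of Neurospora crassa, and by the small photoreceptor ENV of the same pathway. In Trichoderma these proteins are known to influence conidiation, mating and the expression of cellulases. Genes of fungal secondary metabolism often lie beside each other as clusters that are switched on or off together. The count table gave no gene names beyond 3 rows of the mating type locus, and 0 of its identifiers were found among 9116 reference genes, so photoreceptor, cellulase or cluster genes could not be looked up. Besides those 3 rows, 4 identifiers are named below, and all others are described in groups.

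The 3 light libraries held 11249966 to 15672321 counts and the 3 dark libraries 13053446 to 14353793. At least 1 read was found for 9414 to 9614 rows in light libraries and for 9786 to 9866 rows in dark libraries. Rank correlations of counts were 0.993 to 0.995 between light libraries, 0.992 to 0.994 between dark libraries and 0.924 to 0.931 across the conditions. The common biological coefficient of variation was 0.111 in light and 0.13 in darkness. The share of counts that 2 libraries assigned to different genes was 23.3% to 24.2% in the 9 pairs of a light and a dark library. It was 4.17% to 5.19% between light libraries and 5.18% to 6.61% between dark libraries, and the ranges did not overlap.

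Most genes tested were called changed between light and darkness, and large changes were falls more often than rises. Of 9079 genes tested, 5543 were called changed (61.1%; edgeR's quasi-likelihood test, adjusted p under 0.05), 2947 of them higher (32.5%) and 2596 lower (28.6%) in light. Which direction prevailed at any fold depended on the processing: DESeq2 gave 2523 higher and 2950 lower genes, its size factors in edgeR 2518 and 2904, no filter 2674 and 2815, the 6 WT libraries alone 2659 and 2690, and a fit without dark replicate 1 2529 and 2597. The values of the 3 light and the 3 dark libraries did not overlap in 6176 genes (68.0%), and 5376 genes (59.2%) were called without overlap. Most of the raised genes changed little. There were 2172 raised and 1189 lowered genes with a change under 2-fold (together 37.0%), against 775 raised (8.54%) and 1407 lowered (15.5%) with a larger one. The median log2 fold change was 0.62 among raised and −1.16 among lowered genes, and 0.04 over all genes tested. A fold of at least 16 was fitted for 66 raised (0.727%) and 338 lowered genes (3.72%), and one of at least 64 for 29 raised (0.319%) and 157 lowered genes (1.73%).

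Large falls partly rested on genes with few reads. Of the 338 genes lowered at least 16-fold, 75 had 0 reads in all 3 light libraries and 69 had 1 to 3 reads, so their fitted folds depend on the prior count. With the genes at 0 set to a bound of 3 reads over the light libraries, 304 still reached 16-fold. With the same bound in darkness, 64 of the 66 raised genes did so. Genes with 1 to 3 reads kept their fitted folds in these counts. Of the 338 lowered genes, 194 had more than 3 reads in light.

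**Figure D1:**
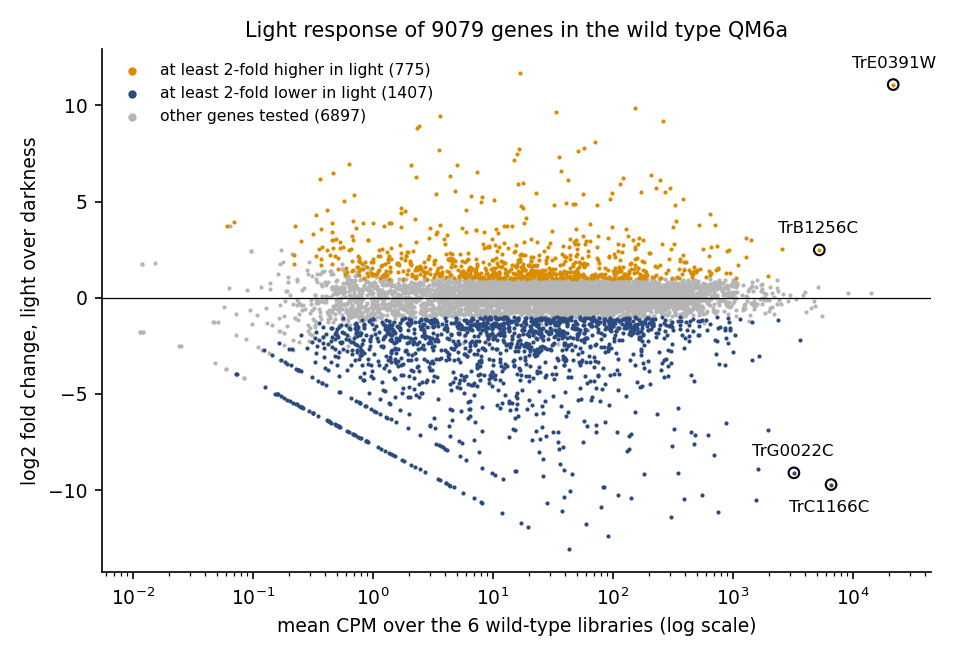
Log2 fold change of light over darkness (y axis) against the mean level over the 6 wild-type libraries in CPM (read counts scaled to a common library size, log x axis) for 9079 genes. The 775 genes at least 2-fold higher in light and the 1407 at least 2-fold lower are coloured, the 4 named genes are circled, and the diagonal lines of points at the lower left are genes with 0 or few reads in light.

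**Figure D2:**
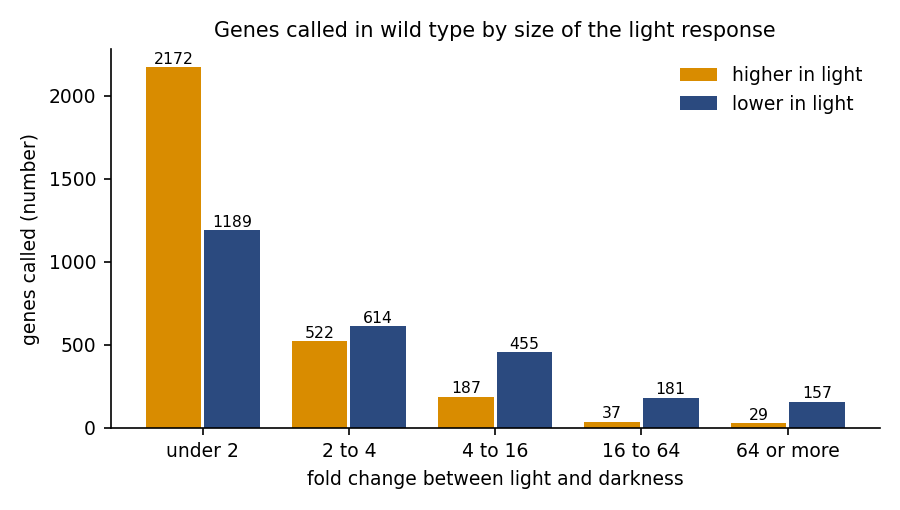
Number of genes called higher (left bar) or lower (right bar) in light in each class of fold change. Raised genes outnumber lowered ones under 2-fold (2172 and 1189), and lowered genes outnumber raised ones in every larger class.

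Seen as reads, the raised and lowered groups exchanged similar parts of the libraries. The 775 genes raised at least 2-fold held 14.6% to 15.1% of the counts in light libraries and 2.85% to 2.94% in dark libraries. The 1407 lowered genes held 3.4% to 3.69% in light libraries and 17.8% to 18.8% in dark libraries. These shares restate the calls and are no further test. The shares of all genes in a library add up to a fixed whole, so gains and losses must balance over all genes. The 338 genes lowered at least 16-fold held 0.0484% to 0.0744% of the counts in light and 5.63% to 6.6% in darkness. Among the 100 genes with the most reads, 61 were in this group in both conditions. Of the 39 that were there in light alone, 38 were called higher, against 32.5% of all genes tested. Of the 39 that were there in darkness alone, 37 were called lower, against 28.6% of all genes tested. These counts follow largely from the choice, as the lists were drawn by level from the same libraries, and are no further test.

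One transcript accounted for much of the gain. TrE0391W had 46000, 41400 and 43200 CPM in the 3 light libraries, against 34.9, 13.8 and 11.7 CPM in the 3 dark libraries. It held the most reads of all genes in each light library, 4.11% to 4.45% of the counts (exact 95% binomial intervals within 4.1% to 4.46%), against 0.00116% to 0.00352% in darkness, where it ranked between 4449 and 6428. Its log2 fold change was 11.08 ± 0.60 (SE; adjusted p = 3.5e-09; 11.69 without dark replicate 1), and its gain in mean CPM was 19.6% of the summed gain of all genes called higher. No value in light came near a dark value, and dark replicate 1 stood above the other dark libraries.

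The share of counts held by the 100 genes with the most reads of each library turned on this transcript. The share was 26.2% ± 1.02 in light and 24.6% ± 0.356 in darkness (SD, n = 3 each; exact permutation test, two-sided p = 0.1, the smallest that 3 against 3 libraries can give). Without TrE0391W, an alternative chosen after seeing the data, it was 23% ± 1.02 in light and 24.6% ± 0.355 in darkness, and the direction was reversed (exact permutation p = 0.1).

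TrB1256C gained the next largest level. It had 11900, 8440 and 6530 CPM in light libraries, against 1680, 1450 and 1650 CPM in dark libraries, which makes the lowest light value higher than every dark value. Its log2 fold change was 2.49 ± 0.21 (SE; adjusted p = 1.2e-07). It ranked 3 or 4 by reads in the light libraries and between 50 and 76 in the dark libraries.

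The genes named for the largest loss of mean CPM, a choice that by itself picks abundant dark transcripts, were TrC1166C and TrG0022C. TrC1166C had 17.1, 13.1 and 17.1 CPM in light libraries, against 12900, 14000 and 12700 CPM in dark libraries, where it ranked 1, 1 and 2 by reads. Its log2 fold change was −9.71 ± 0.85 (SE; adjusted p = 4.6e-07). TrG0022C had 11.6, 8.68 and 15.1 CPM in light libraries, against 5590, 8010 and 5800 CPM in dark libraries, with ranks between 4 and 7 in darkness (log2 fold change −9.10 ± 1.11 SE; adjusted p = 1.2e-05). Both kept 126 to 239 reads per light library, so neither was at 0. Their SE come from the fit of all 18 libraries, in which the light libraries of both mutants spread more widely for these genes than those of the wild type.

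**Figure D3:**
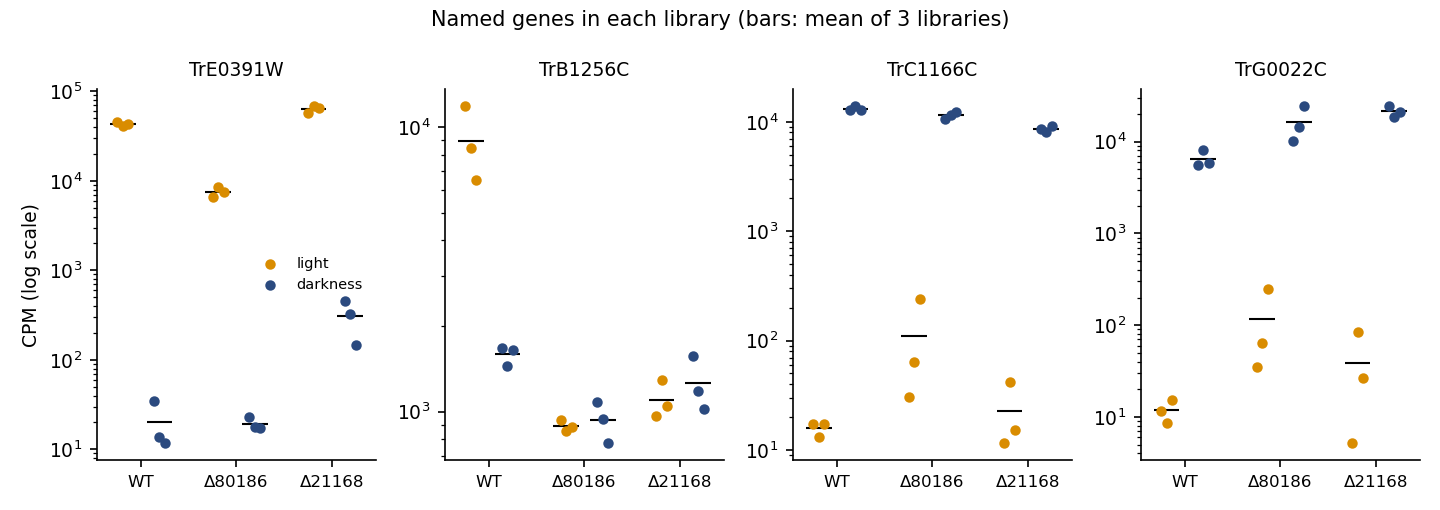
CPM (log y axis) of the 4 named genes in all 18 libraries, with light left of darkness in each strain; points are libraries and bars the mean of 3. The wild-type light and dark values do not overlap for any of the 4 genes, and TrB1256C is at 6530 CPM or more in the wild-type light libraries and at 1680 CPM or less in all others.

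Genes at 0 in a whole condition were mostly dark-expressed. Among genes that averaged 5 CPM or more in the opposite condition, 16 had 0 reads in all 3 light libraries and 2 genes had 0 reads in all 3 dark libraries. The 16 genes had 5.49 to 85.9 CPM in darkness, with a median of 10.4 CPM and 225 to 3536 reads over the 3 dark libraries, and were spread over 6 identifier letters. The same 16 genes had at most 3 reads over the light libraries in 13 cases in Δ80186 and in 9 cases in Δ21168. Few light reads in a mutant do not by themselves show a fall in light there. A lowered run of 3 under letter A that holds such a gene had 71, 162 and 101 CPM in wild-type darkness. In Δ80186 darkness it had 1.05, 2.3 and 4.38 CPM. In that mutant 0 of its members were called lower in light, against 25.4% of all genes. The 2 genes at 0 in darkness had means of 7.3 and 33.5 CPM in light and were members of a run of neighbours described below.

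The 3 rows named after the mating type locus carried next to no reads. These genes encode the mating type regulators of the MAT1-1 idiomorph, while QM6a is known to carry the opposite mating type. In light, mat1-1-1 had 1, 1 and 0 reads, against 0 reads in each dark library. The rows mat1-1-2 and mat1-1-3 had 0 reads in all 6 libraries, which allows up to 0.0736 CPM over the light libraries and 0.0728 CPM over the dark libraries by a limit of 3 counts. No fold is given at this depth.

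Among the genes tested, the share lowered was highest where reads were few. At low levels a gene passes the filter mostly when it is high in 1 group, so the shares under 1 CPM, and in part those from 1 to 10 CPM, are partly fixed by the filter. CPM is not scaled to gene length here, so the classes are of reads, not of transcripts. At a mean under 1 CPM over the 6 libraries, 30.4% of 648 tested genes were called at least 2-fold lower and 11% at least 2-fold higher. From 1 to 10 CPM these shares were 27.9% and 13.1% of 1712 genes, and from 10 to 100 CPM they were 11.5% and 7.44% of 4421 genes. From 100 to 1000 CPM they were 9.6% and 6.45% of 2187 genes. Above 1000 CPM, 13 of 111 genes were lowered and 9 were raised at least 2-fold, but 76.6% were called changed at any fold, against 61.1% of all genes. Lowered genes outnumbered raised ones at 2-fold in each class.

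The identifiers are a letter from A to G, a running number and an ending W or C. In the systematic names of budding yeast such a form gives the chromosome, the order along it and the strand. Whether it does so here is not stated in the sources used here, and the order of numbers is used below only as given. The share of genes lowered at least 2-fold was 13.8% for letter A, 13.9% for C, 14.9% for D, 15% for E, 16% for B, 18.3% for F and 18.6% for G. The share raised at least 2-fold ran between 6.59% for G and 11.4% for F. The median log2 fold change of a letter was between 0.01 and 0.06. By ending, 15.1% of C and 15.9% of W genes were lowered, and 8.95% of C and 8.12% of W genes raised.

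The first and last 50 identifiers of each letter held a larger share of lowered genes than the others, a difference given with no test. Of 522 tested genes at these ends, 194 were at least 2-fold lower in light (37.2%) and 66 at least 2-fold higher (12.6%). Of 8557 inner genes, 14.2% were lowered and 8.29% raised. Genes at the ends also had fewer reads, with 53.3% of them under 10 CPM, against 24.3% of inner genes. Among genes of at least 10 CPM alone, 32.8% of 244 end genes and 10.1% of 6475 inner genes were at least 2-fold lower. The part of gene length or of repeated sequence in this difference was not tested.

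Strongly lowered genes lay next to each other in many places. A run was counted where at least 3 neighbouring identifiers all were called in the same direction with at least a 4-fold change. There were 46 lowered runs with 166 genes, which is 20.9% of the 793 genes lowered at least 4-fold (8.73% of all tested). Raised runs numbered 4, with 17 genes, which is 6.72% of the 253 genes raised at least 4-fold (2.79%). Without light replicate 1 there were 7 raised runs. Lowered runs were found under all 7 letters, and 42 of the 46 held both W and C identifiers. Their lengths were 3 in 30 runs, 4 in 9 runs and 5 to 7 in 7 runs. Genes under 10 CPM made up 59.6% of the members of lowered runs and 56.2% of all genes lowered at least 4-fold. How many runs the mere number of lowered genes would give was not tested.

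**Figure D4:**
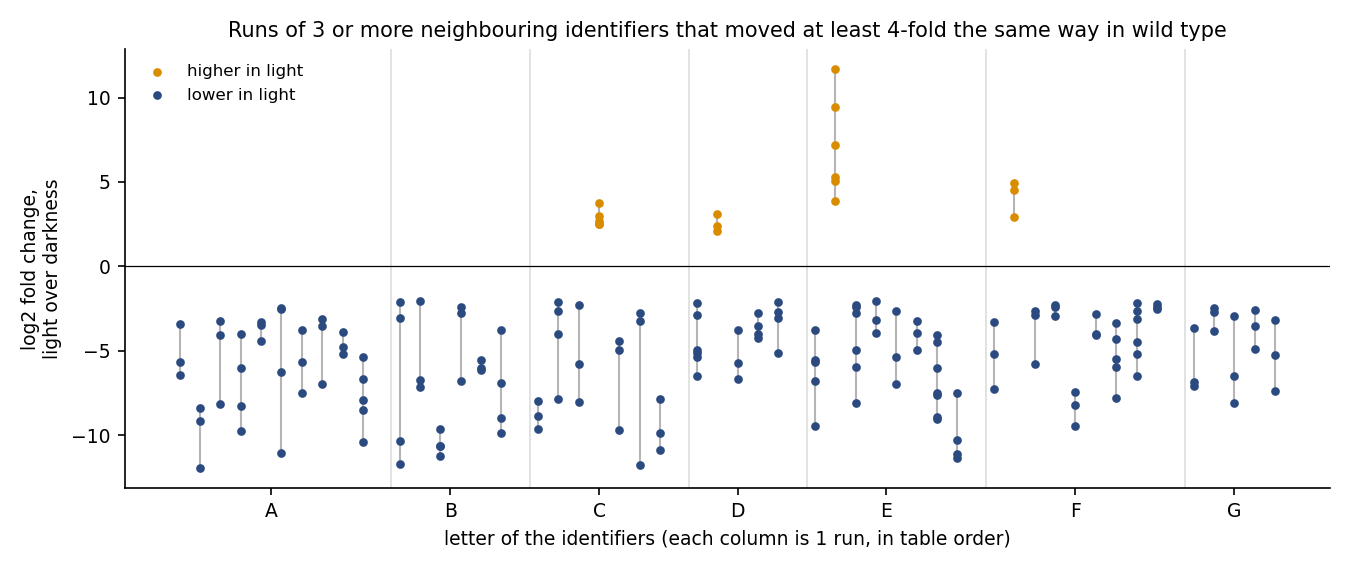
Log2 fold change of light over darkness (y axis) of every member of the 50 runs, each run a column of points joined by a line, arranged by letter. The 46 lowered runs are spread over all letters, and the 4 raised runs lie under C, D, E and F.

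The longest lowered run held 7 identifiers under letter E. Its summed level was 68, 58 and 70.5 CPM in light libraries, against 4710, 4690 and 5030 CPM in dark libraries, 73.4-fold lower by the means. Behind it, after 2 rows with next to no reads, came a run of 4 identifiers, all ending in C. These 4 summed to 0.827, 1.03 and 1.29 CPM in light, against 2220, 2890 and 1970 CPM in darkness, 2250-fold lower by the means. Every member of both runs was also called lower in light in Δ80186 and in Δ21168, against 14.9% of all genes. The libraries of these mutants enter neither side of the wild-type comparison. The first 5 identifiers of letter E formed another lowered run, with 1.47, 0.9 and 1.43 CPM in light and 46.1, 96.8 and 64.7 CPM in darkness.

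A run of 4 identifiers under letter B had 0 reads in every light library of the wild type. Its summed level in dark libraries was 67.5, 60.4 and 65.7 CPM, so that it was at least 870-fold lower in light, against a floor of 3 reads over the light libraries. The bound was 535-fold without light replicate 2, 570-fold without light replicate 3 and 636-fold without light replicate 1. In Δ21168 the same 4 identifiers summed to 8.75, 12.4 and 9.17 CPM in light, against 49.5, 48.5 and 59.4 CPM in darkness. The light response of all 4 differed between the wild type and Δ21168 by the interaction test, against 30.6% of all genes. That of 0 of the 4 differed between the wild type and Δ80186, against 41.8% of all genes. The run is described for its 0 reads in wild-type light, which by itself favours a smaller response elsewhere.

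The 4 raised runs differed in how far the light libraries agreed. A run of 3 identifiers under letter F summed to 128, 120 and 127 CPM in light, against 16.1, 11.7 and 15 CPM in darkness, 8.76-fold higher by the means. Its light libraries lay close together, and all 3 members were called higher in light in both mutants as well, against 14.1% of all genes. A run of 6 under letter E, which follows the lowered run that opens this letter after 5 other rows, summed to 240, 108 and 64.2 CPM in light, against 3.45, 3.02 and 3.71 CPM in darkness. It was 40.5-fold higher, and 25.4-fold higher without light replicate 1, which stood highest. A run of 3 under letter D summed to 58.8, 152 and 313 CPM in light and to 44.3, 38 and 34.7 CPM in darkness. Here light replicate 3 stood highest, and the 4.48-fold rise was 2.7-fold without it.

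The fourth raised run lay close to TrC1166C, the gene with the largest loss of mean CPM. It held 5 identifiers that end 3 rows before TrC1166C, and summed to 8000, 7840 and 5950 CPM in light libraries, against 1240, 1320 and 1150 CPM in dark libraries, 5.88-fold higher by the means. TrC1166C and the identifier on each side of it formed a lowered run. This lowered run summed to 18.2, 14.1 and 18.1 CPM in light and to 12900, 14000 and 12700 CPM in darkness. Nearly all of this was TrC1166C itself. The identifier before it had 1.1, 1.03 and 0.86 CPM in light and 31.8, 33.9 and 26.8 CPM in darkness. The identifier after it was near the floor, with 0, 0 and 0.0717 CPM in light and 0.552, 0.697 and 0.945 CPM in darkness. The row between the runs had 7.63, 7.2 and 4.16 CPM in light and 11.4, 11.1 and 10.5 CPM in darkness. Strong rises and a strong fall thus stood within 9 neighbouring rows.

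**Figure D5:**
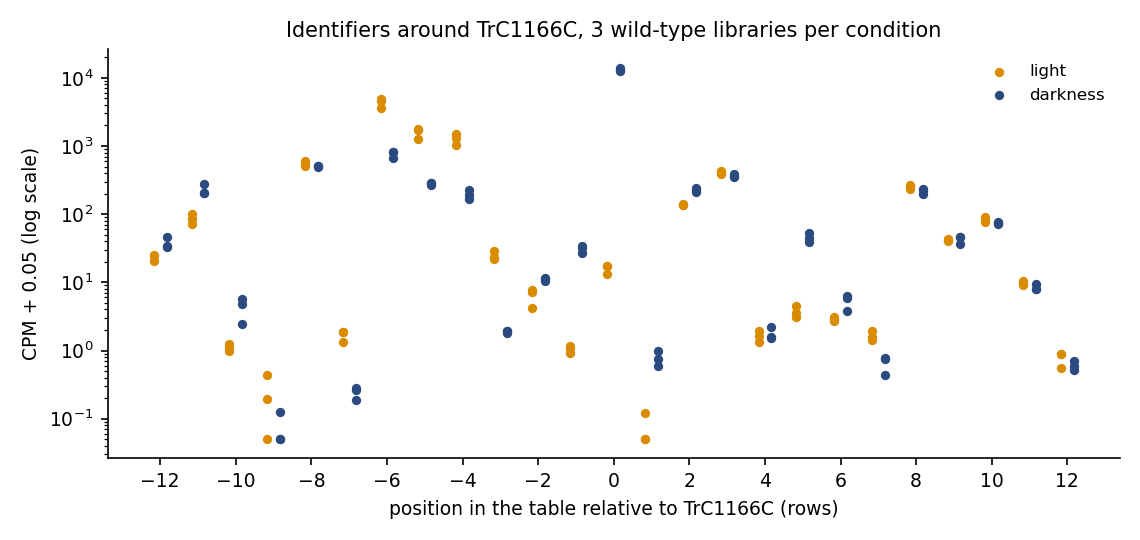
CPM plus 0.05 (log y axis) in the 3 light (left) and 3 dark (right) wild-type libraries for the 25 rows around TrC1166C, which is at 0 on the x axis. Rows −7 to −3 are higher in light and rows −1 to 1 are lower in light.

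Neighbours resembled each other most where a C identifier was followed by a W identifier. Across 2301 such pairs, Pearson's r of the log2 fold changes was 0.53 and Spearman's rho 0.34. Over 2324 pairs of a W followed by a C identifier, r was 0.16 and rho 0.08. Pairs with the same ending lay between these, with r of 0.32 for 1610 pairs of C and 0.25 for 1569 pairs of W. When the first gene of a pair was lowered at least 4-fold, the next one was so too in 90 of 178 pairs of C before W (50.6%). It was so in 35 of 156 pairs of W before C (22.4%), in 31% of pairs of C and in 25.2% of pairs of W. The share was 33.2% over all pairs, while 8.73% of all genes tested were lowered at least 4-fold. All pairs share the same 6 libraries and pairs overlap in their members, so these are descriptions across genes. Reads of overlapping neighbours cannot be told apart, and their part in the pattern was not tested.

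Replicate spread in the condition with the higher level was modest in most genes with a large response. These genes were called by a test on the same replicates, which by itself leaves out genes with a wide spread. Among the 775 raised genes the highest light value was 1.23 times the lowest in the median, and more than 2 times the lowest in 99 genes (12.8%). In these 99 genes light replicate 3 held the highest value 61 times and light replicate 1 the lowest value 68 times. Among the 1407 lowered genes the median ratio of the highest to the lowest dark value was 1.34, and it exceeded 2 in 223 genes (15.8%). Dark replicate 3 held the highest value in 114 of these and dark replicate 1 the lowest in 129.

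How far the wild-type response differed from that of the mutants was tested by interactions, the log2 light response of the wild type minus that of the mutant. The mutant responses come from separate libraries. The members were chosen by a large response in the wild type, which by itself favours a smaller response elsewhere. Of the 775 raised genes, 434 were called higher in light in Δ80186 too (56%, against 27.9% of all genes), 552 in Δ21168 (71.2%, against 30.5%), and 333 in both (43%, against 14.1% of all genes). Of the 1407 lowered genes, 989 were called lower in Δ80186 (70.3%, against 25.4%), 1043 in Δ21168 (74.1%, against 29.7%), and 822 in both (58.4%, against 14.9% of all genes). Of the 338 genes lowered at least 16-fold, 262 were called lower in both mutants (77.5%).

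The response differed from that of Δ80186 in 499 of the 775 raised genes (64.4%, against 41.8% of all genes) and in 704 of the 1407 lowered genes (50%). The larger rise was in the wild type in 462 of the 499, and the larger fall in 593 of the 704. It differed from that of Δ21168 in 343 raised genes (44.3%, against 30.6% of all genes) and in 580 lowered genes (41.2%), with the larger response in the wild type in 306 and 505 of them. For 206 of the 775 raised and 322 of the 1407 lowered genes the response was larger in the wild type than in each mutant by the interaction tests. The matching count over all genes was not taken, and the choice of members by a large wild-type response favours this direction. The count columns of the Δ21168 libraries carry numbers of a separate series in light and darkness alike. The part of this in its interactions was not tested.

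At least 2-fold raised genes overlapped only in part between strains. The wild type shared 269 with Δ80186, which is 34.7% of its own 775 and 48% of the 560 of Δ80186, and 384 with Δ21168, 49.5% of its own and 57.8% of the 664 of Δ21168. Among lowered genes it shared 819 with Δ80186, 58.2% of its own and 67.5% of the 1213 of Δ80186. With Δ21168 it shared 884, 62.8% of its own and 68.1% of the 1298 of Δ21168. Each share of lowered genes was larger than the matching share of raised genes, a difference that was not tested. The lowered lists were also longer in every strain, with 1213 and 1298 of 9079 tested genes in the mutants, against 560 and 664 raised. Longer lists by themselves favour larger shares, so these values do not show which direction is better shared.

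Among the lowered runs, 122 of 166 members (73.5%) were called lower in both mutants, against 417 of the 627 genes lowered at least 4-fold outside runs (66.5%). Among the raised runs, 5 of 17 members were called higher in both mutants, against 125 of 236 outside runs (53%). The raised run of 6 under letter E had 22, 43.3 and 36.2 CPM in light and 6.62, 5.74 and 6.42 CPM in darkness in Δ80186. In Δ21168 it had 1.16, 1.35 and 1.56 CPM in light and 4.81, 3 and 3.21 CPM in darkness. All 6 members differed in response between the wild type and Δ21168 by the interaction test, against 30.6% of all genes.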

How the data were processed

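The authors deposited whole-number counts per gene, 1 column per library, not normalised; reads were aligned with HISAT2 2.2.1, per the submitters' processing notes, and libraries came from a stranded kit after depletion of ribosomal RNA, per the labels' protocols. A published transcript set of QM6a is cited in the series design. Build, counter, strand setting and the handling of multiply aligned reads are not stated in the labels or the table, so near-identical, overlapping and antisense genes are uncertain. Columns were matched by sample descriptions, and 0 columns were left out. From the counts, genes were kept with filterByExpr (minimum count 10, minimum total 15), which removed 1800 rows. Testing used the robust quasi-likelihood F test of edgeR 4.0.16 under R 4.3.3, after TMM scaling, in 1 fit of 18 libraries with a mean per group (12 residual degrees of freedom). Benjamini-Hochberg adjustment ran over the 9079 genes tested, the threshold was 0.05, and SE is the absolute log2 fold change over the root of F. For low counts it does not give the precision. CPM use TMM-scaled library sizes. Binomial intervals and floors cover counting error only. Replicate pairs differed beyond counting noise (chi-square per degree of freedom 15.6 to 32.3).

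Named genes are the 2 with the largest gain and the 2 with the largest loss of mean CPM among called genes whose values did not overlap, and the 3 mating type rows. Members, groups and lists were chosen with earlier results of these data known. Alternatives were DESeq2 1.42.0, other scalings, filters and thresholds, the 6 WT libraries alone, a replicate block and leaving out each WT library.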

Additional observations from a re-analysis of the deposited data

Results flagged for a closer look

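Interactions, tested with edgeR, are given here as the log2 light response of the wild type minus that of the mutant. Over all genes tested, they were called for 41.8% against Δ80186 and for 30.6% against Δ21168. The named genes were chosen by their change in mean CPM in the wild type, which by itself favours a larger response there. The light responses of 3 of the 4 named genes differed between the wild type and at least 1 mutant by this interaction test. That of TrE0391W was 2.47 ± 0.58 (SE) larger than in Δ80186 (adjusted p = 0.004; higher in light in all 3 strains; 3.13 without WT dark replicate 1). Its levels in Δ80186 were 6610, 8530 and 7490 CPM in light and 23.1, 17.7 and 17.5 CPM in darkness. Against Δ21168 the difference was 3.39 ± 0.57 (adjusted p = 0.00068; 4.07 without WT dark replicate 1). There the light libraries of the mutant, with 57700, 68900 and 65500 CPM, stood above those of the wild type, and so did its dark libraries, with 460, 326 and 146 CPM.

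TrB1256C had 932, 858 and 885 CPM in light and 1080, 941 and 774 CPM in darkness in Δ80186. In Δ21168 it had 968, 1290 and 1050 CPM in light and 1570, 1180 and 1020 CPM in darkness. Its response differed by 2.55 ± 0.29 from that in Δ80186 (adjusted p = 7.7e-06) and by 2.68 ± 0.29 from that in Δ21168 (adjusted p = 1.1e-05). The light and dark values of either mutant overlapped.

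The fall of TrC1166C was larger in the wild type than in Δ80186, with a difference of −3.01 ± 0.85 (adjusted p = 0.013). With a replicate block in the fit this difference was −2.5 and was not called (adjusted p = 0.058). It stayed called under 11 of 12 alternatives. Against Δ21168 the difference was −1.16 ± 0.85 (adjusted p = 0.35). The light libraries of Δ80186 held 30.8, 63.6 and 238 CPM and its dark libraries 10700, 11500 and 12200 CPM. Those of Δ21168 held 11.5, 42 and 15.2 CPM in light and 8670, 8150 and 9200 CPM in darkness.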

How the results depend on the processing

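The numbers of genes called kept within 1.5 times of those reported under 13 of 14 alternatives. Testing against a 2-fold change in place of no change called 1436 genes, 433 higher and 1003 lower. The balance of directions at any fold turned with DESeq2 (46.1% higher, against 53.2%), its size factors in edgeR (46.4%), no filter (48.7%), the 6 WT libraries alone (49.7%) and without dark replicate 1 (49.3%). Lowered genes outnumbered raised ones at 2-fold in each of these fits. Without each WT library in turn, 5005 to 5162 genes were called, 674 to 780 at least 2-fold higher and 1376 to 1454 at least 2-fold lower. Of the 775 raised and 1407 lowered genes, 673 and 1230 were called in the same direction under all 12 alternatives other than the stricter filter and the test against 2-fold.

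Nothing in the labels says whether same-numbered light and dark libraries were paired. Their deviations from the group means had r of 0.15, −0.01 and 0, against −0.14 to 0.15 for differently numbered libraries. With 3 libraries per condition these values cannot decide whether samples were paired. With the replicate block, 747 of the raised and 1357 of the lowered genes were still called. The TrC1166C difference from Δ80186 was then −2.50 by the interaction test (adjusted p = 0.058, range over 12 alternatives 0.0014 to 0.058). The 4 named genes stayed past the threshold under each alternative run.

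Leaving TrE0391W out reversed the difference in the share of the top 100 genes, with −1.59 in place of 1.61 percentage points, and leaving out libraries gave 1.05 to 2.06. At 2-fold there were 17 raised and 94 lowered runs, and at 5 identifiers or more 2 and 7. Without light replicate 1 there were 7 raised runs (range 4 to 7, lowered 43 to 49). With at least 1 CPM in the other condition, 46 genes were at 0 in light and 5 in darkness, and with at most 3 reads allowed, 48 and 5. Depth limits the folds of genes with few reads in light.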
